A study of Mus musculus with 130 samples.

Results

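The core circadian clock genes are the transcripts that make up, or directly read out, the cell's own daily oscillator, and 10 of them were followed in mouse liver: Arntl, Clock, Npas2, Per1, Per2, Per3, Cry1, Dbp, Nr1d1 and Nr1d2. They were chosen by name as a fixed list, with earlier results of these data known, and matched by Ensembl identifier. All 10 were found among the 36077 genes held in either of the deposited tables. Liver RNA was sequenced from 130 mice, all labelled male, in a study of dietary iron. In its diet study, 15 C57BL/6J mice received one of 5 diets with 3 mice each: chow, an iron-sufficient diet (50 ppm), an elevated one (500 ppm), carbonyl iron at 2% of the diet (20000 ppm), or the latter made with cellulose fibre. In its strain panel, 115 mice of 114 inbred strains ate chow for 4 weeks and then 2% carbonyl iron for 6 weeks; 56 were BXD strains, 20 AXB/BXA, 4 BXH and 3 CXB, each bred from a pair of inbred parents, and 31 were other inbred strains. Each strain was represented by 1 mouse, except 129X1/SvJ with 2 mice, so that in the panel a difference between strains and a difference between single mice cannot be told apart. The labels used here give no hour of sampling, no age and no batch for any mouse.

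The clock runs as a loop of transcription and feedback. BMAL1, the protein of Arntl, pairs with CLOCK or NPAS2 and switches on the Per and Cry genes, Nr1d1, Nr1d2 and Dbp through E-box sequences. The PER and CRY proteins then hold that pair back, while the nuclear receptors REV-ERBα (Nr1d1) and REV-ERBβ (Nr1d2) repress Arntl, Clock, Npas2 and Cry1. DBP is a transcription factor that binds D-box sequences, among others in Per genes. In a liver sampled around the clock, Nr1d1 and Dbp peak before the Per genes, Cry1 follows, and Arntl, Clock and Npas2 are high when Dbp is low. A single sample per mouse thus reads both how strongly a gene is expressed and the phase of the clock when the tissue was taken.

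On the GRCm38 assembly with the GENCODE M21 annotation, the activators lie on chromosome 7 (Arntl, ENSMUSG00000055116, 113207465 to 113314126, plus strand), chromosome 5 (Clock, ENSMUSG00000029238, 76209868 to 76304792, minus strand) and chromosome 1 (Npas2, ENSMUSG00000026077, 39193731 to 39363236, plus strand). The repressors of the main loop lie on chromosome 11 (Per1, ENSMUSG00000020893, 69095217 to 69109960, plus strand), chromosome 1 (Per2, ENSMUSG00000055866, 91415982 to 91459324, minus strand), chromosome 4 (Per3, ENSMUSG00000028957, 151003652 to 151044665, minus strand) and chromosome 10 (Cry1, ENSMUSG00000020038, 85131700 to 85185064, minus strand). The REV-ERB genes lie on chromosome 11 (Nr1d1, ENSMUSG00000020889, 98767932 to 98775333, minus strand) and chromosome 14 (Nr1d2, ENSMUSG00000021775, 18204054 to 18239127, minus strand), and Dbp (ENSMUSG00000059824) lies on chromosome 7 from 45705088 to 45710203 on the plus strand. Exons of Nr1d1 share 263 bases with Thra on the opposite strand, those of Dbp share 539 bases with Sphk2, and those of Arntl share 33 bases with the antisense gene Gm45355. The library kit marks strand, but whether the counting used it is not given in the sources used here, so reads in the shared bases could belong to either partner.

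The promoters of 9 of the 10 genes were in the RefSeq promoter table of GRCm38.p6, in 13 windows, and Per2 was not among them. The 250 bases before each start were searched on both strands for the E-box CACGTG, the related CACGTT, the D-box TTATGTAA, the REV-ERB and ROR element as TAGGTCA or TGGGTCA, and the cAMP response element TGACGTCA. The 4 genes with a match are shown from base -250 to base -11 relative to the start, read 5′ to 3′ on the gene's own strand, because they place the elements of the loop in the genes whose levels are described next. Capitals mark the matches.

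Per1, chr11:69098699-69098938, plus strand: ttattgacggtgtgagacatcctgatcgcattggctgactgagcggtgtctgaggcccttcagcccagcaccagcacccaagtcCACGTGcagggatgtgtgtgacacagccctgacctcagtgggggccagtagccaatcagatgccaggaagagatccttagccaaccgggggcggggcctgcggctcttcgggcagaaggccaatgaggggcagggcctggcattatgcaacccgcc
Cry1, chr10:85185065-85185304, minus strand: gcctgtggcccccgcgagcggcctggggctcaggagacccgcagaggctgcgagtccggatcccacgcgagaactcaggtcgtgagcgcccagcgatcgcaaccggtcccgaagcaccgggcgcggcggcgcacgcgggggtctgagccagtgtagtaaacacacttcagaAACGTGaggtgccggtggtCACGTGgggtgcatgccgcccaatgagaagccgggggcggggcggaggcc
Per3, chr4:151044676-151044915, minus strand: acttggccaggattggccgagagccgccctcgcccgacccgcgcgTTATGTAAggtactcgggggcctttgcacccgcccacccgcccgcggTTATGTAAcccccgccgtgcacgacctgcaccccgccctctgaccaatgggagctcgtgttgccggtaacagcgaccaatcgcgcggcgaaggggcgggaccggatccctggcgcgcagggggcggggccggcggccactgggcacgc
Nr1d1, chr11:98775388-98775627, minus strand: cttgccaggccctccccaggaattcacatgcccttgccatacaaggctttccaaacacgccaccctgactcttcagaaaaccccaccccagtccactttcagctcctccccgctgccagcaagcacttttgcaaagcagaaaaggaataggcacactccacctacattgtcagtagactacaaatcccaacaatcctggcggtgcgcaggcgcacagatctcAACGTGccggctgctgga

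Per1 held CACGTG beginning at -166 and Cry1 held it at -60. CACGTT appeared as its reverse complement AACGTG in Cry1 at -79 and in Nr1d1 at -28, and TTATGTAA appeared in Per3 at -205 and again at -158. No match overlapped another. Among all 32817 promoter windows of the table, 6.02% held CACGTG, 3.85% CACGTT, 0.817% TTATGTAA, 5.39% a REV-ERB and ROR element and 1.55% TGACGTCA. The Per1 window lies inside the annotated span of the gene, upstream of a later RefSeq start. A match is a run of letters and not a measured binding site, and for the other genes the letters searched were simply not in these windows.

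Expected counts per library, summed over genes, lay between 10.4 and 20.4 M (1 M is 1000000) in diet-study mice and between 9.41 and 20.6 M among the strains. The 2 studies were deposited in separate tables and were never pooled. All 8 hepatocyte markers were detected in the diet study, with a summed level of 73876 to 100959 CPM (counts per 1000000, scaled with TMM factors) in every group, and 3 of 8 exocrine pancreas markers were at 0 in all 15 mice. Macrophage markers were higher with 2% iron: 9 of 12 rose against 50 ppm, and their summed level was 620 to 634 CPM against 202.5 to 278 CPM. Of 6 erythroid markers, 5 rose and 1 fell in the same comparison, with summed levels of 323 to 478 CPM against 68.0 to 110 CPM. The part of these markers in the clock gene results was not tested, and in whole liver RNA fewer cells of a type and less RNA per cell cannot be told apart. In the panel library labelled BXD65/RwwJ, 4 Y-linked genes summed to 3.86 CPM, against 124 to 313 CPM in the other 114 panel libraries. Its male label is thus not borne out. Counts of calls with and without that library are given in the closing section.

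To ask whether dietary iron changes the clock genes, the 5 diets were fitted together and 6 pairs of diets were compared with edgeR's quasi-likelihood test, Benjamini-Hochberg adjusted over 13560 genes. The threshold for a call was an adjusted p of 0.05. Nr1d1 was the 1 clock gene called: it was lower with 2% iron than with 50 ppm and than with chow. The other 9 were called in none of the 6 comparisons, and several of them differed widely between mice on the same diet.

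Nr1d1 encodes REV-ERBα, which represses Arntl and genes of lipid and bile acid metabolism. Its levels were 128, 83.7 and 106 CPM in the mice on 50 ppm and 66.4, 85.9 and 180 CPM in those on chow. They were 48.8, 82.9 and 75.6 CPM on 500 ppm and 38.8, 42.5 and 53.4 CPM on 2% iron. The 3 mice on 2% iron were thus below every mouse on 50 ppm or chow and overlapped those on 500 ppm in their highest value. With 2% iron the mean was 44.9 ± 7.61 CPM (SD, n = 3), against 106 ± 22.4 CPM on 50 ppm and 111 ± 61 CPM on chow. The log2 change was -1.24 (SE 0.39) against 50 ppm, with an adjusted p of 0.0451 by edgeR's quasi-likelihood test, and -1.31 (SE 0.39) against chow, with an adjusted p of 0.0266. In these comparisons 15.7% and 22.8% of all genes tested were called, so 1 clock gene of 10 is not above the background share in either. The call against 50 ppm was lost when any single mouse of those groups was left out, with adjusted p between 0.0546 and 0.153, and the call against chow was kept in 3 of 6 such fits, with a fitted change of -0.76 and an adjusted p of 0.149 without mouse 3 on chow. Thra, the partner on the opposite strand, had 10.2 to 15.9 CPM on 2% iron and 18.1 to 20.5 CPM on 50 ppm, and within diets its deviations had an r of -0.0577 with those of Nr1d1. Over the 114 strains of the panel the r of Thra and Nr1d1 was 0.527.

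The mice given 2% iron with cellulose had 48, 54.7 and 123 CPM of Nr1d1, so that mice 1 and 2 were near the mice on plain 2% iron and mouse 3 was near those on 50 ppm. Against 2% iron, the log2 difference was 0.74 (SE 0.39), with an adjusted p of 0.434. When the cellulose group took the place of the 2% iron group, the difference from 50 ppm was -0.50 and its adjusted p was 0.35. Nr1d1 was thus not called on the second 2% diet, in a comparison with 50 ppm that called 4026 of 13560 genes.

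Nr1d2, the close relative of Nr1d1, had 44.9, 36.4 and 62.1 CPM on 2% iron. On chow it had 54.1, 86.2 and 100 CPM, and on 50 ppm 78.1, 55.8 and 77.7 CPM. The groups overlapped through mouse 1 on chow, mouse 2 on 50 ppm and mouse 3 on 2% iron. The log2 difference was -0.75 (SE 0.26) against chow, with an adjusted p of 0.0511 by edgeR, and -0.56 (SE 0.26) against 50 ppm, with an adjusted p of 0.159. DESeq2, which called 21.9% of all genes there, called the difference from chow with an adjusted p of 0.0206.

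**Figure D1:**
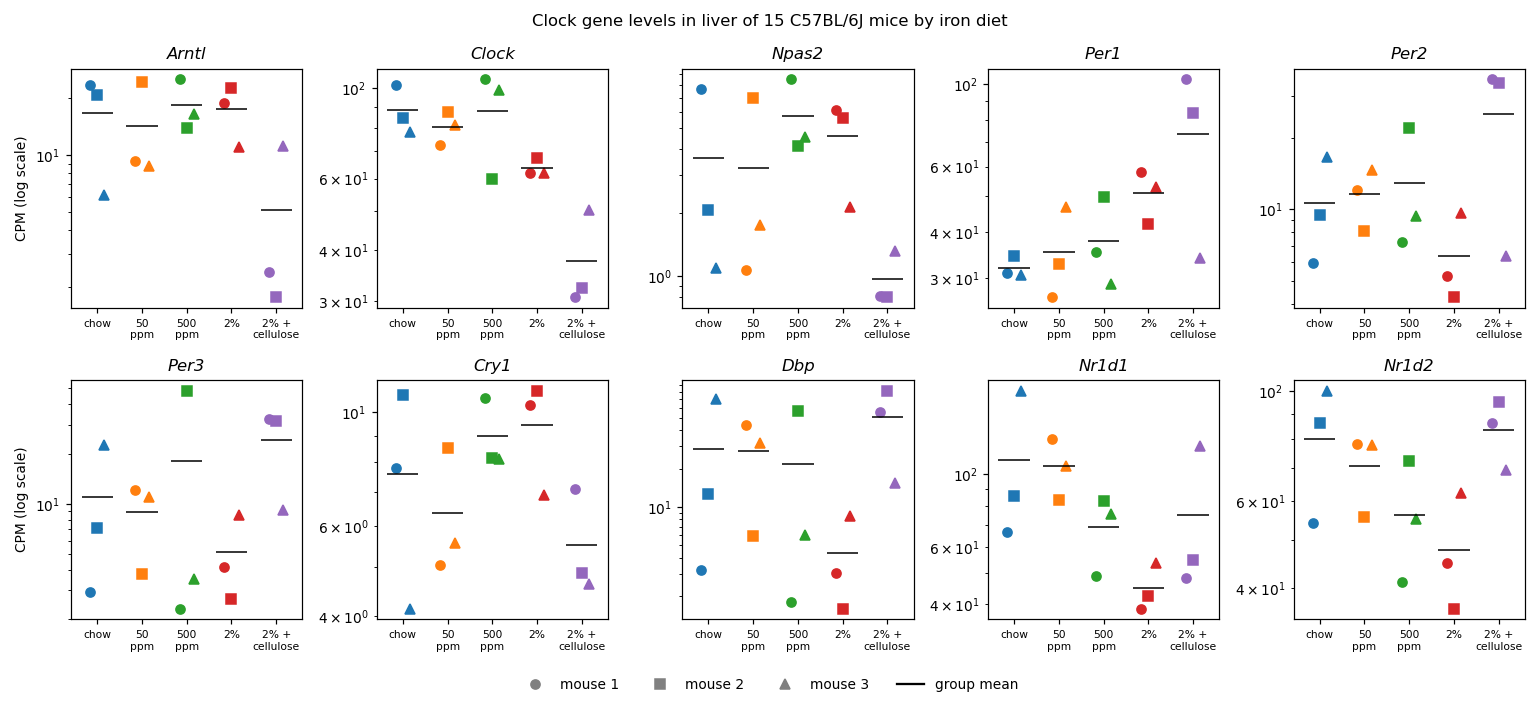
Level of each of the 10 clock genes in the liver of 15 C57BL/6J mice on 5 diets, in CPM on a log scale. Each point is 1 mouse, its shape gives the mouse number within its diet, and the black line is the group mean. Dbp and Per3 spread widely within every diet, while the 3 mice on 2% iron lie together for Nr1d1 at 38.8 to 53.4 CPM.

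Dbp spread most within diets. On 50 ppm it had 44.2, 5.90 and 32 CPM, on 500 ppm 1.81, 57.1 and 6.04 CPM, and on chow 3.20, 12.8 and 70.2 CPM. On 2% iron it had 3.07, 1.60 and 8.45 CPM, and on 2% iron with cellulose 55.8, 81.6 and 15.4 CPM. The range on 500 ppm and on chow each covered most of the range seen over all diets. The fitted log2 difference between 2% iron and 50 ppm was -2.64, larger than that of Nr1d1, but its SE was 1.29 and its adjusted p 0.188 by edgeR. Sphk2, which shares exonic bases with Dbp, had 35.8 to 46.9 CPM on 2% iron and 33.5 to 52 CPM on 2% iron with cellulose. It had 48.6 to 64.7 CPM on 500 ppm, 68.2 to 85.6 CPM on 50 ppm and 62.5 to 67 CPM on chow. Deviations of Sphk2 from the diet means had an r of -0.447 with those of Dbp, and over the strains the r was -0.22.

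The Per genes encode the proteins that, with CRY, repress the BMAL1 pair. Per3 had 4.14, 2.67 and 8.62 CPM on 2% iron, 12.1, 3.77 and 11 CPM on 50 ppm, and 2.32, 48.3 and 3.52 CPM on 500 ppm. Mouse 2 on 500 ppm thus stood far above both other mice of its diet, as it did for Dbp. Per2 had 21.9 CPM in that mouse and 7.32 and 9.42 CPM in the other 2 mice on 500 ppm, and 5.22, 4.27 and 9.64 CPM on 2% iron. Per1 had 58.1, 42 and 53 CPM on 2% iron, all above the 30.5 to 34.5 CPM on chow, with a log2 difference of 0.67 (SE 0.33) and an adjusted p of 0.157. Neither Per2 nor Per3 separated the mice on 2% iron from those on 50 ppm or chow.

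Of the activators, Clock had 62.1, 67.5 and 61.8 CPM on 2% iron, below the 72.7 to 87.6 CPM on 50 ppm and the 78.2 to 102 CPM on chow. The groups did not overlap, yet the log2 difference was only -0.34 (SE 0.21) against 50 ppm, with an adjusted p of 0.297, and -0.47 (SE 0.21) against chow, with an adjusted p of 0.121. Against 500 ppm, where Clock had 105, 59.8 and 98.9 CPM, it was called only when mouse 2 on 500 ppm was left out, at -0.68 with an adjusted p of 0.0203, in a fit that called 15.9% of all genes. Arntl had 18.9, 22.8 and 11.1 CPM on 2% iron and 9.30, 24.6 and 8.78 CPM on 50 ppm, and Npas2 had 6.13, 5.60 and 2.13 CPM against 1.07, 6.96 and 1.74 CPM. Both genes overlapped between these diets.

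Cry1, the remaining repressor, had 10.4, 11 and 6.91 CPM on 2% iron and 5.04, 8.51 and 5.55 CPM on 50 ppm. Its groups overlapped, with a log2 difference of 0.57 (SE 0.31) and an adjusted p of 0.239.

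Between 500 ppm and 50 ppm no clock gene was called, at a background of 0% of all genes. At an unadjusted p under 0.05 the edgeR test had 0 clock genes and 428 of 13560 genes there, and DESeq2 and limma called 0 genes. Between 2% iron and 500 ppm, where 11.3% of all genes were called, edgeR called 0 clock genes, 1 had an unadjusted p under 0.05 (Clock), and DESeq2 and limma called 0. Between chow and 50 ppm, with a background of 0.391%, edgeR, DESeq2 and limma called 0 clock genes and none had an unadjusted p under 0.05. Their log2 differences there ran from -0.15 for Per1 to 0.32 for Per3. The median log2 difference over the 10 genes was -0.45 for 2% iron against 50 ppm, -0.38 against 500 ppm and -0.61 against chow, beside 0.0092, 0.00048 and 0.0064 over all genes tested. Without mouse 2 on 500 ppm the median against 500 ppm was -0.13, and without mouse 3 on chow that against chow was -0.31. These comparisons share the 2% iron mice, so the 3 medians are not independent. The 2% diet made with cellulose had no such lower median: against 50 ppm it was 0.021, beside 0.0046 over all genes. Against plain 2% iron the cellulose group had a median of 0.63, beside 0.0001 over all genes. Many of the 10 genes also varied together within diets, so a median over them is not 10 separate readings.

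The fibre of the 2% diet went with a different pattern in 2 of 3 mice. In the cellulose group mice 1 and 2 had high Per2 (35.2 and 34 CPM), high Per3 (32.5 and 31.8 CPM), low Arntl (2.42 and 1.76 CPM) and low Clock (30.7 and 32.3 CPM). Mouse 3 had 6.39 CPM of Per2, 9.16 CPM of Per3, 11.2 CPM of Arntl and 50.3 CPM of Clock. For Per2, Per3 and Arntl, mouse 3 thus lay nearer to the mice on plain 2% iron than to its own group. Against 2% iron the log2 difference was 1.97 (SE 0.60) for Per2, -0.75 (SE 0.21) for Clock and 3.53 (SE 1.29) for Dbp, and their adjusted p-values by edgeR were 0.2, 0.166 and 0.273. No clock gene was called, at a background of 0.0811% of all genes. Without adjustment 8 of 10 had a p under 0.05, as did 1757 of 13560 genes in all (13%). DESeq2 called Clock and Per2 and 1.86% of all genes, and limma called neither. Once mouse 3 of the cellulose group was left out, edgeR called Clock, Per2 and Arntl and 1.54% of all genes. Whether the groups differed in the hour of sampling is not given in the labels used here, so fibre and hour cannot be told apart.

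Of 13 further loop genes, 1 fell between 2% iron and 50 ppm, where 15.7% of all genes were called: Hlf, a relative of Dbp that binds the same D-box, at -0.64 (SE 0.18, adjusted p 0.0303). Tef, the third of these D-box factors, was the 1 of 13 that fell against chow, at a background of 22.8%, from a mean of 88.9 CPM to 39.8 CPM, at -1.16 (SE 0.39, adjusted p 0.0431). None was called in the other 4 diet comparisons by edgeR. The median log2 difference of the 13 genes was -0.06 for 2% iron against 50 ppm and -0.22 against chow.

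Among 12 liver genes known to follow the clock, Elovl3 (a fatty acid elongase) fell most, from 389, 245 and 199 CPM on 50 ppm to 11.8, 47.1 and 15.9 CPM on 2% iron. No mouse overlapped, and its log2 change of -3.48 (SE 0.58) had an adjusted p of 0.00194 by edgeR. It was no higher with cellulose, at 1.69, 2.47 and 5.39 CPM, while Dbp and Per3 were high in mice 1 and 2 of that group. Cyp7a1, the rate-limiting enzyme of bile acid synthesis, fell by 1.36 on the log2 scale (SE 0.39, adjusted p 0.0319), and Nampt, which makes NAD, rose by 0.77 (SE 0.23, adjusted p 0.0334). Against chow the same 3 were called in the same directions, and Usp2, a deubiquitinase, fell by 2.35 (SE 0.75, adjusted p 0.0376). Against 500 ppm Elovl3 fell by 3.75 and Lpin1, a phosphatidate phosphatase, rose by 1.72. The remaining genes of this list did not pass the test. The share of all genes called was 15.7% against 50 ppm, 22.8% against chow and 11.3% against 500 ppm.

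A list of 12 genes that answer temperature, glucocorticoid or feeding was set beside these. With 2% iron against 50 ppm, at the background of 15.7%, Sgk1, Igfbp1 and Fkbp5 rose by 1.68, 1.47 and 1.02 on the log2 scale, Pck1 fell by 0.65 and the other 8 did not pass the test, the 5 temperature and heat-shock genes (Cirbp, Rbm3, Hspa8, Hsph1 and Hspa1b) among them. Of 7 immediate early genes tested, 1 rose: Btg2, by 2.57. Their part in the clock gene results was not tested.

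The strain panel asks how the same genes vary when every mouse ate 2% iron. Dbp ranged from 0.374 CPM in AXB5/PgnJ over a median of 106 CPM to 270 CPM in BXD31/TyJ, and Arntl from 0.184 CPM in CBA/J over 2.52 CPM to 37.2 CPM in BXD38/TyJ. Per3 ranged from 1.27 CPM in AXB5/PgnJ over 69.2 CPM to 168 CPM in BXD67/RwwJ, and Nr1d1 from 3.13 CPM in BXD51/RwwJ over 59.2 CPM to 199 CPM in BXD13/TyJ. These 4 genes thus covered a range of 63.7-fold (Nr1d1) to 724-fold (Dbp) among mice on one diet. Npas2 was mostly near the limit of detection, with a median of 0.316 CPM and no count in 7 strains, where 3 counts would be 0.220 to 0.288 CPM; it reached 19 CPM in BXA13/PgnJ. The lowest Arntl value rests on 2 counts, and Arntl had under 10 counts in 14 of 115 panel libraries.

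The other genes had narrower ranges. Per1 ranged from 5.75 CPM in KK/HlJ over 69.0 CPM to 335 CPM in NZB/BlNJ, and Per2 from 5.38 CPM in AXB5/PgnJ over 43.6 CPM to 74.4 CPM in AXB19b/PgnJ. Cry1 ranged from 3.45 CPM in I/LnJ over 9.41 CPM to 56.7 CPM in BXD38/TyJ. Clock, from 19.8 CPM in CE/J over 38.3 CPM to 93.6 CPM in BXD38/TyJ, and Nr1d2, from 26.3 CPM in BXD51/RwwJ over 108 CPM to 154 CPM in BXD34/TyJ, were the steadiest, with 4.73-fold and 5.87-fold ranges. The SD of log2 CPM between strains was 1.63 for Dbp and 0.45 for Clock, against a median of 0.40 over 15695 genes, which put Dbp at the 97.6th and Clock at the 54.4th percentile.

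Levels of different genes can be set side by side only per length, as TPM (transcripts per 1000000). The median over the strains was 66.0 TPM for Dbp, 28.8 for Nr1d2, 24.8 for Nr1d1, 17.2 for Per1 and 14.8 for Per3. It was 7.84 TPM for Per2, 4.93 for Clock, 3.74 for Cry1, 0.993 for Arntl and 0.193 for Npas2. Since single strains covered wide ranges, neighbours in this order overlap in their levels. Over the 15 mice of the diet study, whose table was made separately, the order began with Nr1d1 at a median of 30.4 TPM, Nr1d2 at 17.9 and Per1 at 11, and Dbp had 6.74 TPM with a range of 1.18 to 52.1 TPM.

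**Figure D2:**
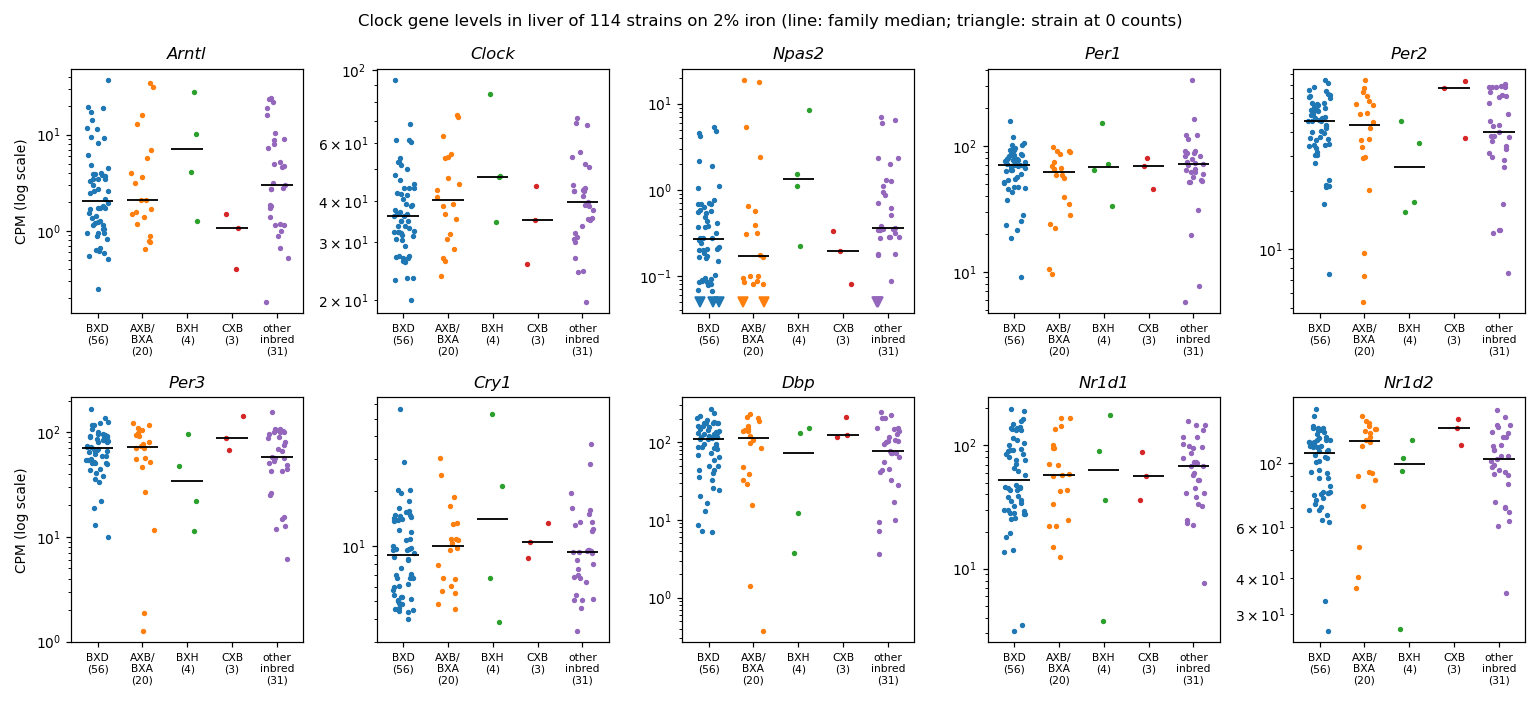
Level of each of the 10 clock genes in 114 strains on 2% iron, in CPM on a log scale, by strain family with the number of strains in brackets. Each point is 1 strain, lines are family medians, and triangles near the bottom of the Npas2 plot are the 7 strains with no count. The families overlap over nearly their whole ranges, and low outlying points of Dbp and Per3 reach 0.374 and 1.27 CPM.

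Dbp and Per3 also varied widely between C57BL/6J mice on the same diet. The SD within diet groups was 1.80 for Dbp and 1.42 for Per3, which put them at the 99.6th and 99.0th percentile of 13560 genes, whose median was 0.20. For Per2, Per3 and Dbp the SD between 114 strains was 0.914, 0.810 and 0.907 times the SD between genetically alike mice on one diet. For the other 7 genes the ratio was 1.40 to 2.24, the highest being that of Nr1d1, and the median over all genes was 1.65. The 2 mice of 129X1/SvJ also differed, with 59.0 and 7.08 CPM of Dbp, 24.4 and 6.43 CPM of Per3 and 10.8 and 20.9 CPM of Arntl. The 2 studies were normalized apart, so the ratios set side by side spreads that were each measured within their own table.

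No clock gene was called between strain families. Of the 10 genes, 9 passed the filter on low counts and Npas2 did not. Between BXD and AXB/BXA strains, where 11.6% of all genes were called, edgeR called 0 of 9, and the widest difference was that of Arntl at -0.56 (SE 0.41, adjusted p 0.411), with the other 8 between -0.15 (Clock) and 0.28 (Per1). Between BXD and the other inbred strains, at a background of 17.7%, it again called 0 of 9, with Arntl at -0.50 (SE 0.35, adjusted p 0.328) and the other 8 between -0.22 (Per1) and 0.20 (Dbp). None of the 9 had an unadjusted p under 0.05 in either comparison, and DESeq2 and limma called 0. With no filter on low counts, Npas2 was called lower in BXD than in AXB/BXA strains, at -1.77 with an adjusted p of 0.0127, in a fit that called 6.86% of all genes. The AXB/BXA mean of Npas2 rests on BXA13/PgnJ and AXB5/PgnJ with 19 and 17.6 CPM, while the family medians were 0.172 CPM in AXB/BXA and 0.270 CPM in BXD. Of the loop genes outside the 10, Csnk1e, a kinase that acts on PER, was higher in BXD than in AXB/BXA strains by 0.30, and Fbxl21, a ligase subunit for CRY, was higher in BXD than in other inbred strains by 0.62. Csnk1d was lower in the latter comparison by 0.09.

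Some strains held the highest or lowest value of several clock genes. AXB5/PgnJ had the lowest Dbp, Per2 and Per3 and also 31.5 CPM of Arntl, 73.1 CPM of Clock and 17.6 CPM of Npas2, all near the top. BXD38/TyJ had the highest Arntl, Clock and Cry1 with 3.50 CPM of Nr1d1 and 6.88 CPM of Dbp, both near the bottom. BXH8/TyJ was close to it, with 27.6 CPM of Arntl, 53.2 CPM of Cry1 and 3.73 CPM of Nr1d1. AXB5/PgnJ and BXD38/TyJ shared high activators but not Cry1, which was 10.4 CPM in the former, or Nr1d1, which was 22.3 CPM. NZB/BlNJ, with the highest Per1 at 335 CPM, had 21.8 CPM of Arntl and 69.3 CPM of Per2, both high, and 43.8 CPM of Clock, 40.9 CPM of Nr1d1 and 16.1 CPM of Cry1, none of them at an end of its range.

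Across the 114 strains many pairs of clock genes were correlated. Of 45 pairs, 36 had an adjusted permutation p under 0.05 for Pearson's r of log2 CPM (100000 resamples, two-sided, Benjamini-Hochberg over the 45 pairs), and 35 for Spearman's rho. The share of pairs passing among other genes was not computed, so these counts have no background beside them. No gene's values fell into separate clusters by the mixture rule used. The p-values of the pairs described in the next paragraphs were 1e-05 for r, the smallest that this number of resamples can give, unless another is stated. Each adjusted value was then 1.55e-05. Mice share no library, but all strains were read against the same normalization, and related strains share parents.

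The activators rose together over the strains. Arntl and Clock had an r of 0.88 (rho 0.869), Arntl and Npas2 an r of 0.783 (rho 0.672), and Clock and Npas2 an r of 0.748 (rho 0.666). Without the 2 strains farthest from the median of the first gene these were 0.868, 0.762 and 0.72. Within families Arntl and Clock had an r of 0.894 in 56 BXD strains, 0.93 in 20 AXB/BXA strains and 0.822 in 31 other inbred strains.

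The genes that read out the activators ran against them. Arntl and Dbp had an r of -0.837 (rho -0.791), Arntl and Per3 -0.832 (rho -0.85), and Arntl and Nr1d2 -0.814 (rho -0.778). For Arntl and Dbp r was -0.822 without the 2 farthest strains, and -0.81, -0.887 and -0.843 in BXD, AXB/BXA and other inbred strains. Npas2 and Per3 had an r of -0.873 and a rho of -0.685. Dbp, Nr1d2 and Per3 in turn rose together, with an r of 0.873 (rho 0.846) for Dbp and Nr1d2 and 0.843 (rho 0.762) for Dbp and Per3. Per2 and Per3 had an r of 0.867 (rho 0.729), and within the 3 families 0.826, 0.946 and 0.833.

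**Figure D3:**
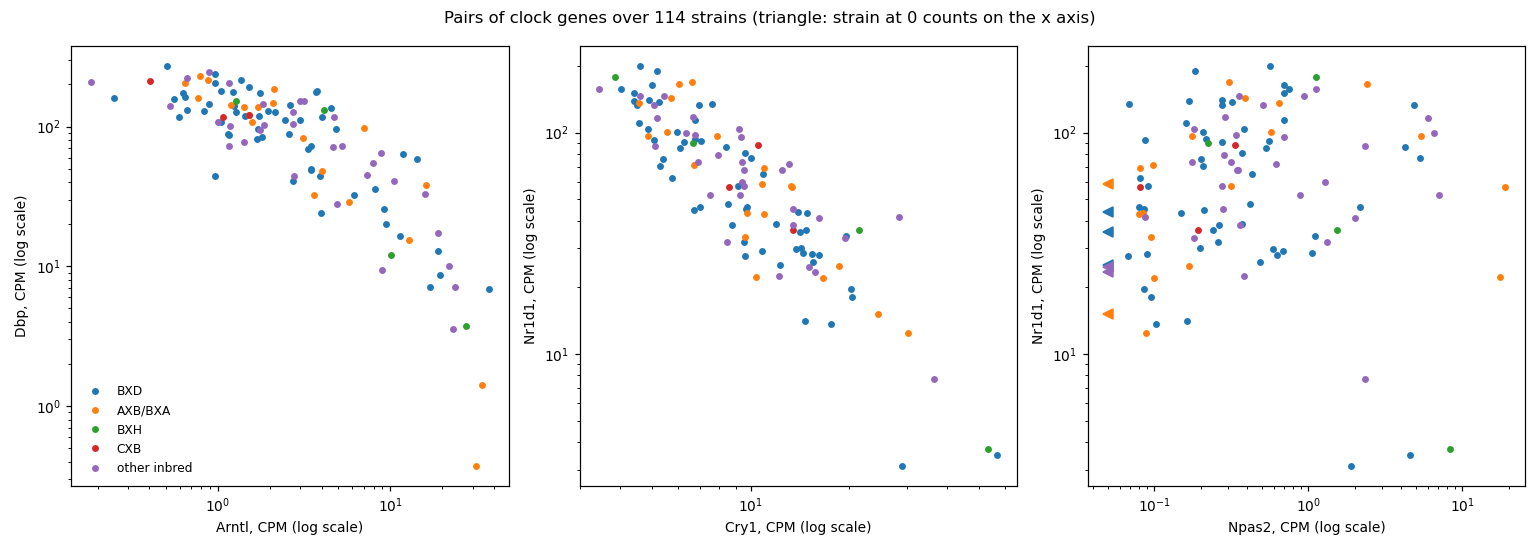
Levels of 3 pairs of clock genes in 114 strains, in CPM with both axes on log scales, coloured by strain family. Arntl falls against Dbp (r -0.837) and Cry1 against Nr1d1 (r -0.885). The r of Npas2 with Nr1d1 is -0.0124, although their rho passed, and Npas2 had under 10 counts in 87 of 115 libraries. Triangles are strains with no Npas2 count.

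The tightest pair joined a repressor of the main loop with a gene of the other arm. Cry1 and Nr1d1 had an r of -0.885 (rho -0.876), -0.859 without the 2 farthest strains, and -0.905, -0.883 and -0.84 in BXD, AXB/BXA and other inbred strains. Nr1d1 was only weakly related to the activators. By permutation its r was -0.284 with Arntl (p 0.00233, adjusted p 0.00308), -0.163 with Clock (p 0.0819, adjusted p 0.0946) and -0.0124 with Npas2 (p 0.897, adjusted p 0.918). Their rho values were -0.134, 0.00992 and 0.227, of which that with Npas2 passed, at an adjusted permutation p of 0.0208. Cry1 likewise had an r of 0.188 with Clock (p 0.0447, adjusted p 0.0544) and 0.00818 with Npas2 (p 0.933, adjusted p 0.933). Per1 stood between the groups. Its r was 0.665 with Per2 (rho 0.419), 0.393 with Cry1 (rho 0.47, p 3e-05) and -0.349 with Nr1d1 (rho -0.499, p 0.00023).

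Nr1d1 and its relative Nr1d2 differed in their partners. The pair had an r of 0.598 and a rho of 0.395, and in the other inbred strains alone an r of 0.4 and a rho of 0.203. Nr1d2 followed Dbp more closely, at 0.873, than it followed Nr1d1. The difference between these values was not tested.

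A principal component analysis of the 10 genes over the strains put 59.9% of the variance on the first component, 26% on the second and 5.21% on the third. The first component set Per3, Dbp, Nr1d2 and Per2 (correlations with it of 0.945, 0.906, 0.886 and 0.844) against Arntl, Clock and Npas2 (-0.931, -0.881 and -0.869). The second set Nr1d1 (0.88) against Cry1 (-0.887) and Per1 (-0.701). Drawn as arrows in the plane of both components, the genes lay around a circle. Starting from Nr1d1 at 68.5 degrees and going clockwise, the order was Dbp at 20 and Nr1d2 at 18.8, Per3 at -9.43, Per2 at -29, Per1 at -60.1, Cry1 at -110 and Arntl at -178 degrees, followed by Clock and Npas2. The order runs through the feedback arm, the Per genes, Cry1 and then the activators. Values of one tissue sample per mouse hold no time axis, so this order is one of likeness among strains.

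**Figure D4:**
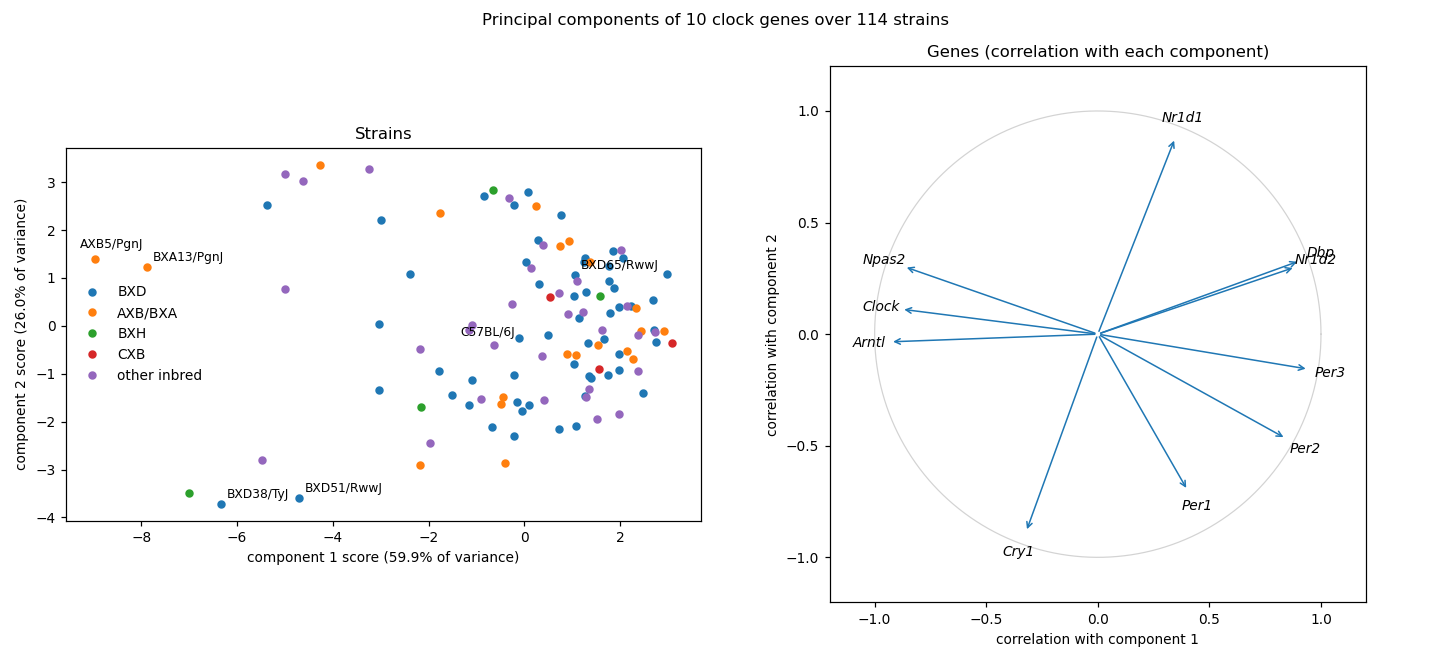
Principal components of the log2 levels of 10 clock genes over 114 strains. The left plot gives the score of each strain on components 1 and 2 (59.9% and 26% of the variance), coloured by family; the right plot gives each gene's correlation with both components as an arrow inside the unit circle. Strains of all families mix, with AXB5/PgnJ and BXA13/PgnJ at the far left and BXD38/TyJ at the lower left, and the arrows run around the circle from Nr1d1 over Dbp, the Per genes and Cry1 to Arntl.

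The pattern among strains recurred among the 15 C57BL/6J mice. After the mean of each diet was taken away, 43 of the 45 pairs had the same sign of r as in the panel, and all 27 pairs with an absolute r of at least 0.5 in the panel did. Deviations of Dbp and Per3 had an r of 0.97, those of Arntl and Per2 -0.91 and those of Cry1 and Nr1d1 -0.77. The pairs of unlike sign were Per2 with Cry1 and Per2 with Nr1d1, whose r in the panel was 0.137 and -0.0994. Npas2 and Nr1d1 had an r of -0.57 among these mice and -0.0124 among the strains. The first 3 components held 66.0%, 23.6% and 4.94% of the variance there. These values come from 15 mice in 5 diets and are given as a description.

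**Figure D5:**
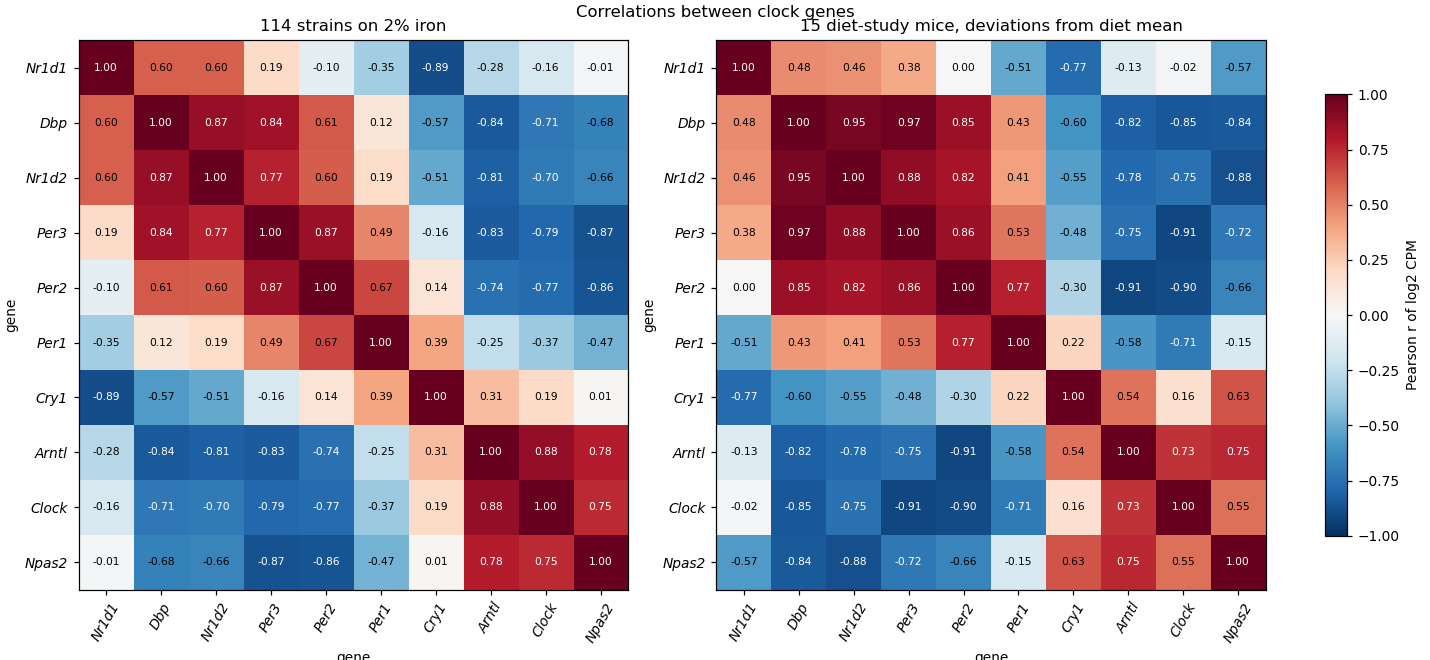
Pearson's r of log2 CPM for each pair of clock genes, over 114 strains (left) and over 15 diet-study mice after the mean of each diet was taken away (right). Genes follow the order of their arrows in the principal component plane; red squares are positive and blue negative. In both plots a positive block of Dbp, Nr1d2, Per3 and Per2 faces a positive block of Arntl, Clock and Npas2 across negative squares, and Cry1 with Nr1d1 is strongly negative (-0.885 and -0.77).

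Genes other than the 10 clock genes were ranked by how closely their levels followed each clock gene over the 114 strains, by Pearson's r of log2 CPM, as a description. The 10 were left out of this ranking, and some of them lay nearer or farther than the genes named, such as Arntl to Clock at 0.88 and Cry1 to Nr1d1 at -0.885. Among the ranked genes Tef, the D-box factor, was the nearest to Per3 at 0.95, to Dbp at 0.829 and to Nr1d2 at 0.761. Wee1, a kinase that holds back mitosis, was the nearest to Per2 at 0.884, followed by Tef at 0.879 and the deubiquitinase gene Usp2 at 0.861. Arntl was followed most closely by Tab2 at 0.885, Chka (choline kinase) at 0.873 and Clpx at 0.838, and Clock by Clpx at 0.862. Of the ranked genes, Npas2 was nearest to Dtx4 at 0.809 and farthest from Wee1 at -0.856. Nr1d1 was nearest to Jade1 at 0.855, the ranked gene farthest from Cry1 at -0.817, and Cry1 was nearest to Ahctf1 at 0.774. Per1 was nearest to Herpud1 at 0.786, Cry2 at 0.784 and Ciart at 0.75, the latter pair being clock repressors themselves. Dbp was farthest from Tab2 at -0.872, and Nfil3, which competes with DBP for the D-box, was among its 3 farthest ranked genes at -0.779.

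To ask whether clock gene levels went with the response to iron, inflammation or depth, each was compared over strains with Bmp6 and Hamp (the signal and the hormone of iron sensing in liver), Lcn2 (lipocalin 2, which binds bacterial siderophores and rises in inflammation) and the library total, in 40 relations. After adjustment over the 40, 5 passed for r and 6 for rho, and none involved Hamp or the library total. The share of all genes that would pass with these measures was not computed, so the counts have no background beside them. The 6 for rho all involved Lcn2, with Arntl, Per1, Per3, Dbp, Nr1d1 and Nr1d2. Nr1d1 and Per3 passed for rho alone. Nr1d1 had a rho of -0.318 with Lcn2 (adjusted permutation p 0.0038) and an r of -0.242 (adjusted permutation p 0.0654). Per3 had a rho of -0.294 (adjusted permutation p 0.0129) and an r of -0.236 (adjusted permutation p 0.0698). Per2, Cry1 and Npas2 passed with none of the 4 measures. Dbp fell as Lcn2 rose, with an r of -0.396 (rho -0.417, permutation p 1e-05 and adjusted p 0.0004 for both). Without the 2 strains farthest from the median of Lcn2, r was -0.366. It was -0.331 in BXD, -0.64 in AXB/BXA and -0.551 in other inbred strains. Adjusted permutation p-values were 0.122, 0.162 and 0.048 in those smaller sets. Arntl had the opposite sign with Lcn2, at 0.325 (adjusted p 0.0084; rho 0.309, adjusted p 0.00736), and 0.28 without the 2 farthest strains (adjusted p 0.056). Within families it was 0.22, 0.476 and 0.527.

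The other 3 relations that passed for r had smaller values. Nr1d2 had an r of -0.29 with Lcn2 (adjusted p 0.0183; rho -0.373, adjusted p 0.0018) and -0.264 without the 2 farthest strains (adjusted p 0.0683), with -0.223, -0.545 and -0.497 within families. On log2(TPM + 1) neither passed, with an r of -0.174 (adjusted permutation p 0.286) and a rho of -0.205 (adjusted permutation p 0.121). Per1 had an r of 0.254 with Lcn2 (adjusted p 0.0479; rho 0.352, adjusted p 0.00307), 0.227 without the 2 farthest strains (adjusted p 0.103), and 0.353, -0.0857 and 0.166 within families, so its sign turned in AXB/BXA strains. Clock had an r of 0.292 with Bmp6 (adjusted permutation p 0.0183), with a rho of 0.238 that did not pass (adjusted permutation p 0.0561). Its r was 0.252 without the 2 strains farthest in Bmp6 (adjusted permutation p 0.0759), and 0.207, 0.113 and 0.461 within families. These 3 and that of Arntl with Lcn2 no longer passed for r once the 2 strains farthest in Lcn2 or Bmp6 were left out. For rho, Arntl, Per1 and Nr1d2 with Lcn2 still passed there, with adjusted permutation p-values of 0.0226, 0.002 and 0.00293. In the diet study Lcn2 rose with 2% iron against 50 ppm by 2.76 (SE 0.71, adjusted p 0.0187).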

How the data were processed

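Liver RNA libraries were made with a stranded mRNA kit and RNA integrity was above a stated minimum, per the labels' protocols. The authors deposited expected counts per gene, estimated with kallisto 0.46 and mm10 as named in the submitters' processing notes, and not normalized. They deposited TPM for the same mice, in 1 pair of tables for each of the 2 studies, and the panel tables carry Ensembl 97 in their name. How transcripts were summed to genes and whether strand was used is not given in the sources used here. The deposited TPM of a mouse added up to 1000000 in the diet study and to 994114 to 997301 in the panel.

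The design had assumed whole counts, so the estimates were rounded to whole numbers for every count test. Genes were tested with edgeR 4.0.16 in R 4.3.3 (quasi-likelihood, TMM factors, filterByExpr, Benjamini-Hochberg adjustment, two-sided), first tried on simulated counts. The 5 diets shared 1 fit without covariates, and strain families were compared with the strain as replicate and the 2 mice of 129X1/SvJ summed. SEs are the log2 change over the root of F. Levels are CPM scaled by TMM factors, and log2 CPM used a prior count of 2. Correlations used 100000 permutations, with the 129X1/SvJ mice averaged. Clusters of strains were looked for with a mixture of 2 normal components (limits: Ashman D of 3, BIC gain of 10, 3 strains per cluster), and no measure passed. The labels do not say that mice of a diet were housed apart, so p-values measure the spread between these mice. Tried as alternatives were DESeq2's size factors in edgeR (RLE), no filter on low counts, a strict filter of 10 counts per library, DESeq2 1.42.0, limma 3.58.1 on log2(TPM + 1) and log2(TPM + 0.1), the compared groups alone, single mice left out, and for correlations a prior count of 0.5, families apart or centred, and BXD65/RwwJ left out. Figures were drawn with matplotlib 3.10.9, and the other steps ran in Python 3.11.15 (numpy 2.4.6, pandas 2.3.3, scikit-learn 1.9.0, scipy 1.17.1).

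The clock genes and the gene lists were chosen with earlier results of these data known. The rule was to name all 10 clock genes in every comparison, but where none was called most are given by counts and a range. Of the other lists, genes are named where called. For likeness the 3 genes of highest and the 3 of lowest r outside the 10 were taken, predicted genes and pseudogenes passed over, and only some are named. Strains are named where they hold a gene's highest or lowest value, and BXH8/TyJ was named after its values were seen.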

Additional observations from a re-analysis of the deposited data

Results flagged for a closer look

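Among the 4 BXH strains, Npas2 stood apart in BXH8/TyJ, with 8.36 CPM against 0.225, 1.12 and 1.53 CPM in BXH10/TyJ, BXH14/TyJ and BXH2/TyJ. The gap to the nearest strain took up 0.839 of the range of the 4 values, just over the limit of 0.829. Each of the 10 genes was examined in this way in this family, on CPM and not on a log scale. The limit marks about 1 in 20 by chance only where values are normally distributed, which was not tested for these 4 strains. The same mouse had 84.6 CPM of Clock and 26.6 CPM of Nr1d2, so it was not Npas2 alone that lay at an end of its range.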

How the results depend on the processing

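No result turned its direction while called. For 2% iron against 50 ppm, 1 clock gene was called (Nr1d1), and 0 were with limma at either pseudocount. In the compared groups alone 2 were (Nr1d1 and Dbp), beside 2033 of 12857 genes in all. Over the fits without 1 mouse the count was 0 to 1. With the cellulose mice in their place, 2 were called (Per1 higher, Clock lower). For 2% iron against chow, 1 was called, and 0 were with limma at either pseudocount. With RLE factors, no filter or DESeq2, 2 were (Nr1d1 and Nr1d2), beside 3124 of 13560, 2723 of 23529 and 3099 of 14170 genes. The compared groups alone gave 3, beside 2824 of 12824 genes, and the fits without 1 mouse gave 0 to 3. Against 500 ppm the count was 0 and without 1 mouse 0 to 1. For cellulose, 0 became 2 with DESeq2 and 0 to 3 without 1 mouse. Between BXD and AXB/BXA, 0 became 1 (Npas2) with no filter. Adjusted p for Nr1d1 over 22 alternatives was 0.00385 to 0.153 against 50 ppm. Leaving out mice of the other diets, and the cellulose exchange, were added after seeing the data; the causes of these changes were not tested.

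Of the 45 pairs, 36 passed for r, and 29 to 38 under the 9 alternatives. Of the 40 relations with other measures 5 passed, 1 without the 2 farthest strains, 0 in BXD, 0 in AXB/BXA and 2 in other inbred strains, which are fewer strains. Without BXD65/RwwJ 35 pairs and 4 relations passed for r: Per3 with Nr1d1 went from an r of 0.193 (adjusted permutation p 0.0488) to 0.189 (0.0573), and Per1 with Lcn2 stayed at 0.254 (adjusted permutation p 0.0548). Without it the family comparisons called 0 clock genes, and 1593 and 2367 genes in all.

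Over all genes, limma at both pseudocounts called 1208 and 1161 against 2127 (2% iron against 50 ppm), 910 and 862 against 1538 (500 ppm), 1945 and 1987 against 3087 (chow), 906 and 917 against 1606 (BXD against AXB/BXA) and 1542 and 1531 against 2408 (BXD against other inbred). The compared groups alone gave 924 for 2% iron against 500 ppm. For chow against 50 ppm 53 became 139 with DESeq2, 21 and 14 with limma and 26 in the groups alone. For cellulose 11 became 222 with DESeq2, 51 and 26 with no and the strict filter, 18 and 18 with limma and 23 in the groups alone. Without 1 mouse the counts ran from 1003 to 2333, 788 to 2204, 2151 to 3320, 4 to 63 and 0 to 212 for 2% iron against 50 ppm, 500 ppm and chow, for chow against 50 ppm and for cellulose.

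No paired analysis was possible because the labels give the mice no numbers shared between groups. Low counts limit Npas2, with 9 to 99 counts per mouse in the diet study and under 10 in 87 of 115 panel libraries, and Arntl, with under 10 in 14 of them; the strict filter kept 7 of the 10 clock genes in BXD against AXB/BXA and 8 against other inbred strains.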

Other observations

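The panel held 1 C57BL/6J mouse on 2% iron, the strain and iron content of 3 mice in the diet study. It had 103 CPM of Dbp, 56.2 CPM of Per3 and 1.84 CPM of Arntl. The 3 diet-study mice had 1.60 to 8.45 CPM of Dbp, 2.67 to 8.62 CPM of Per3 and 11.1 to 22.8 CPM of Arntl, while mice 1 and 2 of the cellulose group, at 55.8 and 81.6 CPM of Dbp and 2.42 and 1.76 CPM of Arntl, lay nearer to the panel mouse. The tables were made and normalized separately, so these levels are set side by side without a test. The parents of the recombinant strains differed too: DBA/2J had 223 CPM of Dbp and 0.664 CPM of Arntl, and A/J had 44.4 and 2.77 CPM, each from 1 mouse.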
